A study of Mus musculus with 4 samples.

Results

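The TIP60-EP400 complex is a chromatin regulator of mouse embryonic stem cells, and 10 of its genes were examined among the 20380 genes of a genome-wide CRISPR-Cas9 knockout screen for MERVL activity. The genes, chosen by name, were Dmap1, Epc1, Epc2, Ep400, Kat5, Trrap, Ruvbl1, Ruvbl2, Ing3 and Vps72, and all 10 were found. They were named because loss of the complex is reported to raise 2-cell-like cells, and with earlier results of these same data in view, in which Dmap1 ranked near the top for enrichment. Their values are therefore a description, and the list as a whole was given no test.

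The libraries came from MERVL-positive cells and from total cells, 2 of each, titled as sequencing repeats. All came from E14, an established mouse embryonic stem cell line of the genotype MERVL-tdTomato, kept in serum with LIF and given a lentiviral CRISPR-Cas9 library of 130209 guides against 20611 genes. About 130000000 cells were transduced for 24 h with polybrene, puromycin was applied for 48 h, and a sort at day 5 collected about 500000 cells positive for the reporter, a mean of 3.84 cells per library guide. The labels give no other treatment for either group and do not say whether the reporter line is a single clone.

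TIP60-EP400 joins a histone acetyltransferase and a nucleosome remodeller in a single assembly. KAT5, also called TIP60, acetylates histones H4 and H2A, and EP400 is an ATPase that places the histone variant H2A.Z in nucleosomes. In embryonic stem cells, loss of subunits is known to disturb self-renewal and colony shape. MERVL is an endogenous retrovirus of the 2-cell embryo that a rare fraction of cultured embryonic stem cells also transcribes, and the tdTomato reporter stands in for this state.

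Per gene there was 1 comparison of the groups, so no spread between libraries can be given, and depth is unknown. The labels name no separate cultures, so the deposited p-values may measure technical spread only. Which group is on top is not stated in the authors' deposited table. Positive values were taken to mean more guides among MERVL-positive cells, a likely direction that the files do not settle. The basis is the study's title, which ties loss of Ints7 to MERVL activation, and the ranks of Ints7 in the authors' deposited table, 157 for positive and 18586 for negative change among 22510 entries. This basis is thin, since the authors' deposited table put Ints7 itself at only 0.14 on the log2 scale, with 3 of 6 guides up, 1 down and an enrichment false discovery rate of 0.931. Should the sign run the other way, all directions below are reversed. Single non-targeting guides had a median log2 fold change of 0.019 with a standard deviation of 0.77. Among genes with 6 guides, 95% lay between -1.05 and 0.77, with a standard deviation of 0.456. A guide was counted as up or down past a loose threshold, which 37.4% of all guides passed upward and 38.0% downward, so passing it is no sign of change by itself.

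The 10 genes spread over both directions. Epc1, Dmap1, Vps72 and Kat5 had the 4 highest log2 fold changes of the 10 in the authors' deposited table, between 0.50 and 1.16. Of their 22 guides 20 were up and 0 down, where 37.4% and 38.0% of guides were over all genes. These 4 were grouped by their values, so a high share of guides up is largely built into the choice. The paired ATPases Ruvbl1 and Ruvbl2 stood at the other end of the authors' deposited table, at -1.35 and -1.38. Epc2, Trrap, Ing3 and Ep400 lay in between, from -0.24 to 0.18 in the authors' deposited table. No member had a false discovery rate under 0.05 in either direction according to the authors' deposited table, which the submitters' processing notes credit to MAGeCK. Across the 20380 genes of the authors' deposited table, 0 passed for enrichment (0%) and 1 passed for depletion (0.00491%).

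**Figure D1:**
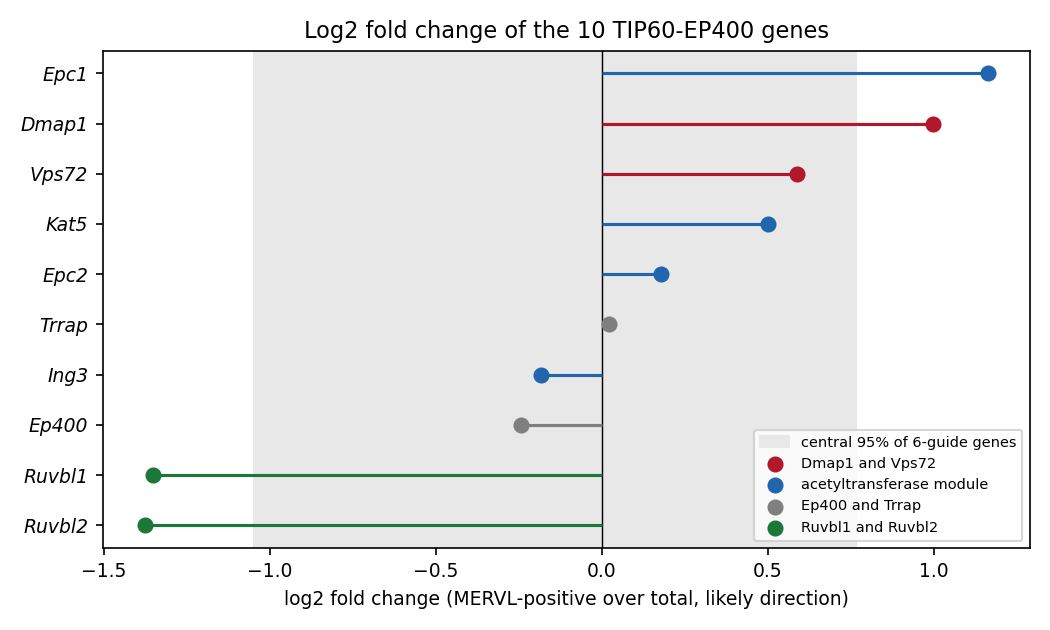
Log2 fold change of each of the 10 genes (horizontal axis, MERVL-positive over total in the likely direction), coloured by role, with a grey band for the central 95% of genes with 6 guides. Epc1 and Dmap1 lie above the band, Ruvbl1 and Ruvbl2 below it, and the other 6 genes inside it.

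Dmap1 and Vps72 are shared between TIP60-EP400 and SRCAP, a related complex that also deposits H2A.Z. Dmap1 was first known as a partner of the DNA methyltransferase DNMT1. The gene spans 117674681 to 117682321 of chromosome 4 in mm10. The authors' deposited table put Dmap1 at a log2 fold change of 1.00, or a ratio of 2.00, and counted 6 of 6 guides up. Its rank for enrichment in the authors' deposited table was 6 of 22510 entries, with a p of 0.000502 that became a false discovery rate of 0.827. Its neighbours in that ranking by the authors' deposited table were Mcpt8 and Dcps. Mcpt8, a protease gene, stood at 1.47 on the log2 scale with 6 of 6 guides up. Dcps, whose product degrades mRNA caps, stood at 0.75 with 5 of 5 up.

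Vps72, also called YL1, encodes a chaperone that binds H2A.Z for deposition, and spans 95111042 to 95123051 of chromosome 3. It was targeted by 4 guides, and the authors' deposited table counted all 4 as up, at a log2 fold change of 0.59. The authors' deposited table ranked Vps72 at 653 for enrichment, with a p of 0.0256 that became a false discovery rate of 0.985. Every one of the 10 guides against Dmap1 and Vps72 was thus up, but the 2 genes were put together after their values were seen. Among genes with 4 guides, 11 of 446 (2.47%) had all of them up.

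Of the acetyltransferase module, the 10 genes include KAT5, the EPC scaffold and ING3, a reader of H3K4 methylation. The EPC scaffold ties KAT5 to the rest of the complex. Epc1, at 6435951 to 6516108 of chromosome 18, was the highest of the 10 in the authors' deposited table, at a log2 fold change of 1.16 or a ratio of 2.24. It too had 6 of 6 guides up in the authors' deposited table, where its enrichment p was 0.00200, its false discovery rate 0.867 and its rank 47. Ordered by log2 fold change, Epc1 took place 86 and Dmap1 place 179 of the 20380 genes, the reverse of their order by p. Of the 16270 genes with 6 guides, 35 (0.215%) had all 6 up, and Dmap1 and Epc1 were 2 of these. Within the 35 they took places 15 and 6 by log2 fold change.

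Kat5, the catalytic subunit, spans 5603014 to 5611556 of chromosome 19. The authors' deposited table gave it a log2 fold change of 0.50, and 4 of its 6 guides were up and none was down. Kat5 missed the threshold of 0.05, since the authors' deposited table listed a p of 0.1001 for enrichment and a false discovery rate of 0.996. At least 4 guides up and none down were found for 554 of the 16270 genes with 6 guides (3.41%), Dmap1, Epc1 and Kat5 among them. With Vps72 added, 4 of the 10 members had no guide down, against 7.19% of all genes. That share covers genes with any number of guides, whereas 9 of the 10 members had 6. These are the same 4 genes that were grouped by their values above.

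Epc2 is the paralog of Epc1 and can fill the same place in the complex. It spans 49450755 to 49551947 of chromosome 2. The authors' deposited table gave Epc2 a log2 fold change of 0.18 and an enrichment p of 0.151, with 3 guides up, 2 down and 1 past neither threshold. Epc1 was 0.98 above Epc2 on the log2 scale, a difference with no replicate check. Ing3, at 21949571 to 21976038 of chromosome 6, stood at a log2 fold change of -0.18, and the authors' deposited table counted 2 of its guides as up and 2 as down. Over Kat5, Epc1, Epc2 and Ing3, 15 of 24 guides were up (62.5% against 37.4% over all genes) and 4 were down (16.7% against 38.0%). Epc1 and Kat5 held most of the guides up, and this grouping was made after the values were seen.

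**Figure D2:**
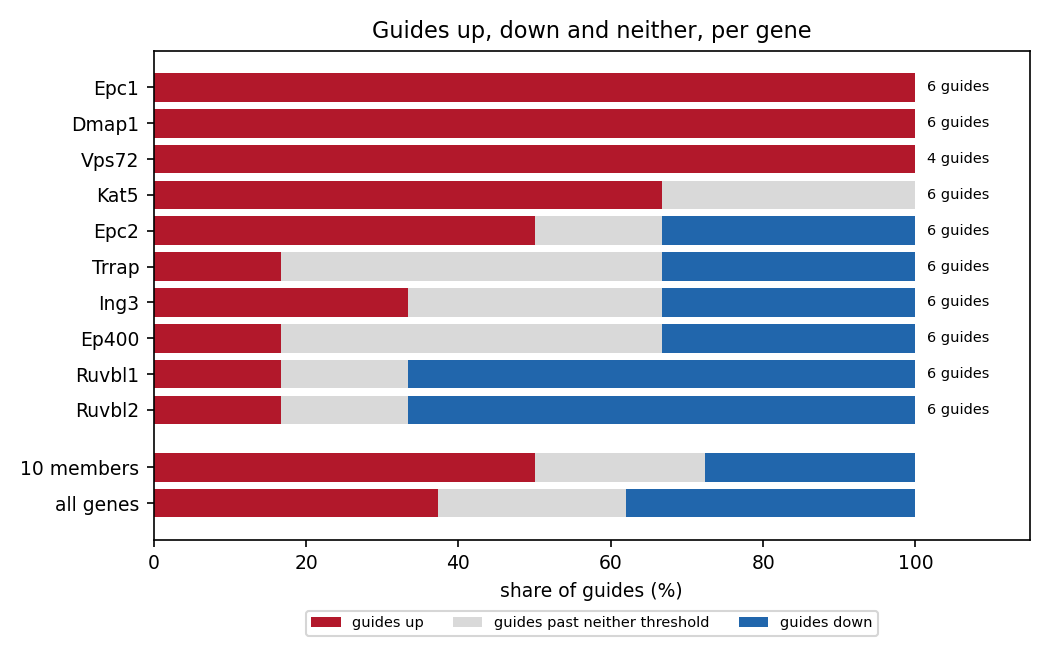
Share of guides (horizontal axis, percent) that were up, past neither threshold or down, for each of the 10 genes from the highest to the lowest log2 fold change, for the 10 genes together and for all genes. Epc1, Dmap1 and Vps72 have every guide up and Kat5 has none down, whereas 4 of 6 guides were down for each of Ruvbl1 and Ruvbl2.

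The large scaffolds gave values near the middle of all genes. Ep400, the remodelling ATPase, spans 110664373 to 110770927 of chromosome 5. The authors' deposited table put it at a log2 fold change of -0.24 and counted 1 guide up and 2 down, with an enrichment p of 0.668 and a depletion p of 0.765. Trrap, on the same chromosome from 144767737 to 144859778, encodes a pseudokinase that docks transcription factors such as MYC and is also a subunit of the SAGA coactivator. Its log2 fold change was 0.021 according to the authors' deposited table, again with 1 guide up and 2 down, and its enrichment and depletion p were 0.381 and 0.567. For each scaffold, 3 of 6 guides passed neither threshold. Neither p of either scaffold was under 0.05, which does not show that their loss had no effect.

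Ruvbl1 and Ruvbl2 are AAA+ ATPases that form a joint ring, which serves TIP60-EP400, SRCAP, the INO80 remodeller and the assembly of other large complexes. Ruvbl1, at 88465409 to 88497566 of chromosome 6, was listed in the authors' deposited table at a log2 fold change of -1.35, or a ratio of 0.392. Its p for depletion there was 0.0405, which the authors' deposited table adjusted to a false discovery rate of 0.975. Ruvbl2, at 45421896 to 45436171 of chromosome 7, was listed in the authors' deposited table at -1.38, or a ratio of 0.385, and its depletion p of 0.0947 (false discovery rate 0.982) missed the threshold. Both had 4 guides down, 1 up and 1 past neither threshold by the authors' deposited table. The paired genes differed by 0.025 on the log2 scale, and 1.08% and 1.05% of all genes had a lower value than Ruvbl1 and Ruvbl2. Having 4 or more guides down was more common, at 2529 of the 16270 genes with 6 guides (15.5%).

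By the authors' deposited table, 3 of the 10 members had an unadjusted enrichment p under 0.05, namely Dmap1, Epc1 and Vps72, where 1023 of all genes did (5.02%). For depletion it was 1 of the 10, Ruvbl1, where the authors' deposited table had 1034 of all genes (5.07%). Under 0.01 there were 2 members for enrichment and 0 for depletion in the authors' deposited table, where 1.07% and 1.12% of all genes passed. Under 0.1 the authors' deposited table had 3 and 2 members, where 9.96% and 10.2% of all genes passed. Outside the central 95% of genes with 6 guides lay 4 members, 2 on either side.

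**Figure D3:**
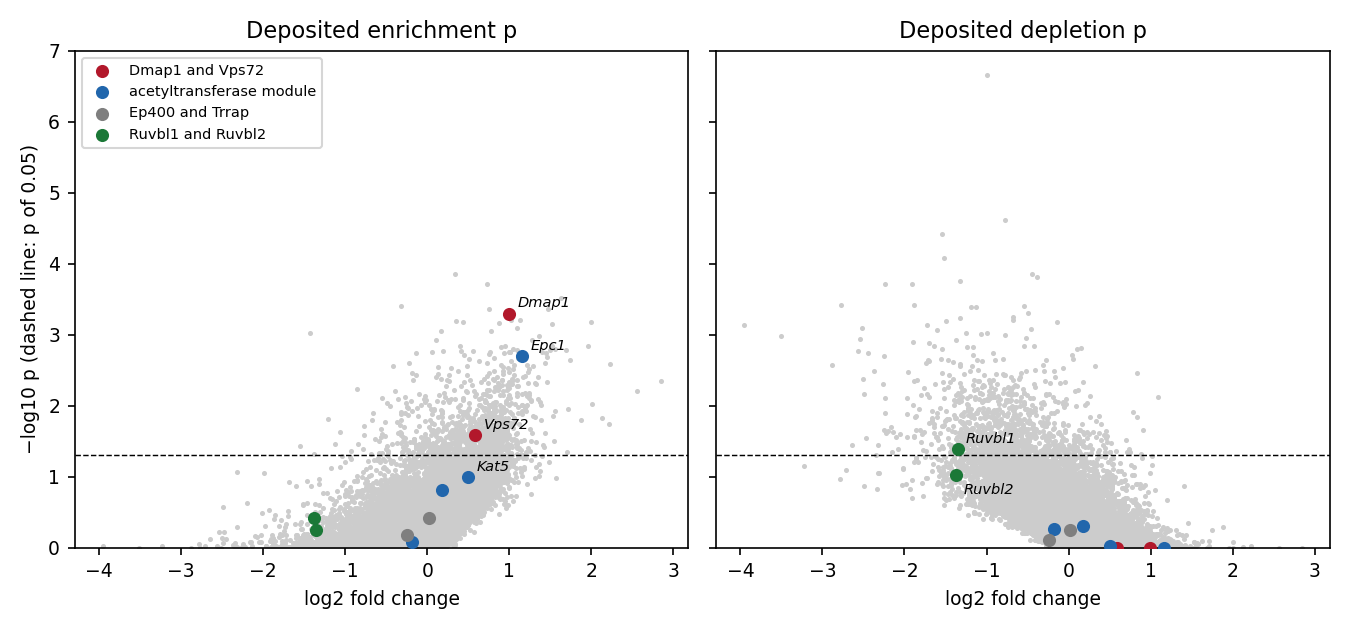
Deposited p (vertical axis, −log10) against log2 fold change (horizontal axis) for all 20380 genes in grey and the 10 genes in colour, for enrichment on the left and depletion on the right. Dmap1, Epc1 and Vps72 lie above the dashed line at p of 0.05 on the left and Ruvbl1 lies above it on the right.

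The 10 genes had a median log2 fold change of 0.099 and a mean of 0.029, against a median of -0.021 over all genes. Above 0 were 6 of the 10, against 48% of all genes. Without Ruvbl1 and Ruvbl2 the median of the other 8 was 0.34, and without Vps72 and Dmap1 it was -0.081, so its sign rests on which subunits are counted. Of 58 guides against the 10 genes, 29 were up (50% against 37.4% over all genes) and 16 were down (27.6% against 38.0%). Dmap1, Epc1, Vps72 and Kat5 held 20 of the 29 guides up, and Ruvbl1 and Ruvbl2 held 8 of the 16 guides down. Guides of a single gene share their target and are not replicates.

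The scores carry some information on the weakest guide of a gene. The enrichment score was read as MAGeCK's robust rank aggregation score, a reading that the headers leave unstated. Under this reading the score has a ceiling set by the number of guides up, and 0 of 18878 genes lay above it. It follows that the weakest of the 6 Dmap1 guides stood between the top 21.2% and the top 37.5% of all guides. For Epc1 the bounds were 26.9% and 37.5%, and for the 4 guides of Vps72 they were 29.4% and 37.5%. Each of these genes thus had at least 1 guide that was no more than moderately high.

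The remaining subunits of TIP60-EP400 also fell on both sides of 0. Among 9 further subunits the median was -0.0086, with 4 above 0, and in the authors' deposited table only 1 of them had an unadjusted enrichment p under 0.05. This was Actl6a, an actin-related protein also found in INO80 and SWI/SNF complexes. The authors' deposited table put Actl6a at a log2 fold change of 0.59, counted 5 of 6 guides up and gave an enrichment p of 0.0307 with a false discovery rate of 0.985. The other subunits above 0 in the authors' deposited table were the YEATS-domain reader Yeats4 at 0.85, the acetyltransferase partner Meaf6 at 0.72 and actin, Actb, at 0.43, each with 4 of 6 guides up. Actl6a, Actb and Yeats4, like Dmap1 and Vps72, also belong to SRCAP. These 5 genes had log2 fold changes from 0.43 to 1.00, with 23 of 28 guides up and 3 down. This grouping was made after the values were seen, and it leaves out Ruvbl1 and Ruvbl2, which SRCAP holds too. With them the 7 shared subunits had a median of 0.59, a mean of 0.10 and a range of -1.38 to 1.00.

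The 5 other subunits were all below 0. Mrgbp, Morf4l1 and Brd8 form a small module that reads histone marks, Morf4l2 is a relative of Morf4l1, and Mbtd1 is a methyl-lysine reader. Morf4l1, which binds methylated H3K36, was the lowest of these in the authors' deposited table at a log2 fold change of -0.83, with 1 guide up, 3 down and a depletion p of 0.133. The authors' deposited table put Mbtd1 at -0.25, Brd8 at -0.24, Morf4l2 at -0.053 and Mrgbp at -0.0086. Over all 19 subunits the median was 0.021, with 10 above 0 and 9 below. Of their 112 guides 54 were up (48.2%) and 33 down (29.5%).

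**Figure D4:**
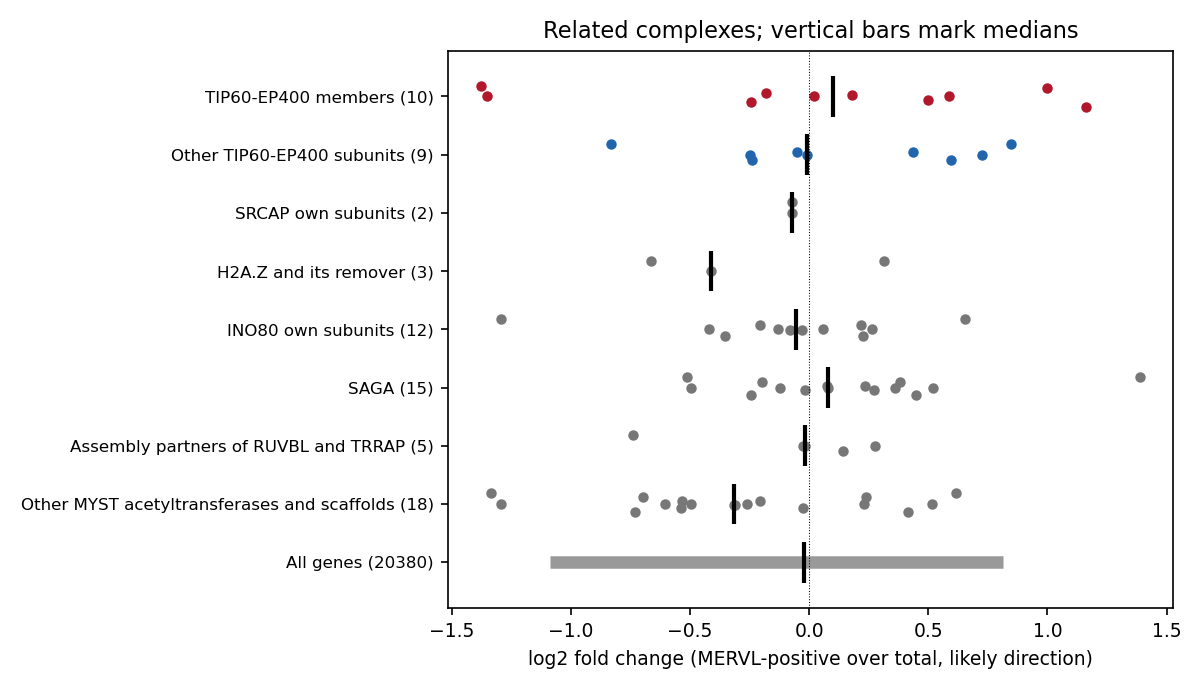
Log2 fold change (horizontal axis) of each gene in the 10 members, in the other subunits of the complex and in related complexes, with a vertical bar at each median and, for all genes, a grey bar over the central 95%. The 10 members spread from -1.38 to 1.16, and the medians of all lists but H2A.Z and the other MYST acetyltransferases lie between -0.072 and 0.099.

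Related complexes were set beside the 10 genes, since several members belong to more than 1 of them. Of the parts that only SRCAP has, Actr6 and Znhit1 stood at -0.071 and -0.073 in the authors' deposited table, and Srcap itself was not analysed here. The smaller p of this pair by the authors' deposited table was 0.444, for enrichment of Actr6. For H2A.Z, the authors' deposited table put its gene H2afz at a log2 fold change of 0.32 with 4 guides up and 2 down, although its smaller p, 0.0957, was for depletion. The second H2A.Z gene, H2afv, stood at -0.66 and the H2A.Z remover Anp32e at -0.41 in the authors' deposited table. The 12 further genes listed for INO80 had a median of -0.058. The authors' deposited table gave 0 of these 12 an unadjusted p under 0.05 in either direction. Over all genes 5.02% passed for enrichment and 5.07% for depletion, so a count of 0 among 12 says little. The smallest p of these 12 in the authors' deposited table was 0.0572, for depletion of the actin-related subunit Actr5. It had 5 of 6 guides down at a log2 fold change of -0.42.

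SAGA, which shares Trrap, had a median of 0.079 over 15 genes, with 9 above 0. Atxn7, of its deubiquitinase module, was placed by the authors' deposited table at 1.39 on the log2 scale, and 4 of 5 guides were up with an enrichment p of 0.0159. Ccdc101, now Sgf29, a reader of methylated H3K4, was placed by the authors' deposited table at -0.51, with a depletion p of 0.0424. Rpap3, Pih1d1, Telo2, Tti1 and Tti2 act with the RUVBL ring or help TRRAP and related kinases to mature. Their median was -0.018, and their smallest p in the authors' deposited table was 0.224, for enrichment of Pih1d1 at a log2 fold change of 0.28. The lowest of these 5 in the authors' deposited table was Rpap3 at -0.74, which is above both Ruvbl1 and Ruvbl2.

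Relatives of KAT5 and their scaffolds, 18 genes of the other MYST acetyltransferase complexes, had a median of -0.31, with 5 above 0 and 13 below. Of these 18, 2 had an enrichment p under 0.05, unadjusted, by the authors' deposited table, where 5.02% of all genes did. Kat6b, a histone H3 acetyltransferase, had a p of 0.00427 in the authors' deposited table. There 3 of its 6 guides were up and 2 down, at a log2 fold change of 0.24. Ing5, an Ing3 relative, had a p of 0.0237 in the authors' deposited table, where 5 of 6 guides were up at a log2 fold change of 0.62. For depletion the authors' deposited table had 4 with a p under 0.05, namely Kansl2 of a KAT8 complex at -1.34 (p = 0.00801), Jade2 at -0.31 (p = 0.00882), Msl2 at -0.50 (p = 0.0319) and Ing4 at -1.29 (p = 0.0497). The share of all genes past that threshold for depletion was 5.07%. None of the 6 genes named here had a false discovery rate under 0.05 in the authors' deposited table. Of the 107 guides against this list, 35.5% were up and 46.7% down, against 37.4% and 38.0% over all genes. For the 10 TIP60-EP400 genes the shares were 50% and 27.6%. Shares nearer to these were seen for the 9 further subunits, at 46.3% and 31.5%, and for guides down in SAGA, at 39.8% and 29.5%. Differences between the lists were not tested.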

How the data were processed

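Guide sequences were amplified from the DNA of sorted MERVL-positive cells and of total cells, 4 libraries in all, 2 per group. The authors deposited 1 table of 22510 entries, which has MAGeCK gene summary columns per the file headers. The submitters' processing notes name MAGeCK and mm10. Version, settings and normalization: not given in the sources used here. Per entry and direction, the authors deposited a score, p-values with false discovery rates, ranks and numbers of guides past a threshold. A log2 fold change per entry was deposited too. Guide counts per library were not used here, so a count model could not be fitted, and deposited p-values were taken as they are. Depth is unknown.

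Names divided the entries into 20380 genes, 1132 microRNAs and 998 non-targeting guides. Members and lists were chosen with earlier results of these data known. The text names all 10 members, the genes next to Dmap1 in rank, and from each list the genes with an unadjusted p under 0.05 or else the one with the smallest p. Other genes, given to complete a list, and groupings by role were chosen after their values were seen. Places among genes, medians, guide shares and a Benjamini-Hochberg adjustment over genes alone were computed with Python 3.11.15, pandas 2.3.3 and scipy 1.17.1. The adjustment and the code of the score bound were checked on simulated data. The bound follows from how the score is defined, so that check does not bear on how the deposited score was read. All 10 members matched RefSeq GRCm38.p6 by symbol, which gave the coordinates. Guide sequences were not used here. Alternatives changed the zero point, the threshold, the subunits counted and the ranking measure.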

Additional observations from a re-analysis of the deposited data

How the results depend on the processing

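No paired analysis was possible because the table has no value per library, and for the same reason no library could be left out and no count model or filter on low counts was run. The median log2 fold change of the 10 members was 0.099. It was 0.50 without Ruvbl1, Ruvbl2 and Trrap, 0.34 without Ruvbl1 and Ruvbl2 (chosen after seeing the data), and -0.081 without Vps72 and Dmap1, which follows from leaving out those genes. It stayed between 0.021 and 0.12 with the mean in its place, without Dmap1, with the other subunits added, or with the median of all genes or of non-targeting guides as zero. With a depletion p under 0.01 in place of 0.05, 0 members passed, and under 0.1, 2 passed (Ruvbl1 and Ruvbl2), where 1.12% and 10.2% of all genes did. For enrichment 2 members passed 0.01 and 3 passed 0.1, where 1.07% and 9.96% of all genes did. With p-values adjusted over genes alone, 0 members passed 0.05. The number of members above 0 was 6 with either zero point, and the sign of no member changed. The share of guides up ran from 44.2% without Dmap1 to 58.7% without Ruvbl1 and Ruvbl2, and the share down from 17.4% without Ruvbl1 and Ruvbl2 to 30.8% without Dmap1. The place of Dmap1 among genes was 6 by enrichment p and 179 by log2 fold change, and that of Epc1 45 and 86. The sort collected 3.84 cells per library guide, and how this number bears on the values was not tested.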

Other observations

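The genes that lie next to the 10 members on their chromosomes were looked up after the members' values were seen. Of 20 such neighbours, 11 had a log2 fold change above 0, against 48% of all genes, and the median was 0.027. The authors' deposited table gave 0 of the 20 an unadjusted p under 0.05 in either direction. Over all genes 5.02% passed for enrichment and 5.07% for depletion, so a count of 0 among 20 says little. Eri3, a predicted exoribonuclease gene 384 bp from Dmap1, was placed by the authors' deposited table at a log2 fold change of 0.97, with 4 guides up, 1 down and an enrichment p of 0.0998. On the other side of Dmap1, 74338 bp away, the authors' deposited table placed the zinc finger gene Klf17 at 0.69 with 4 guides up and 2 down, although its smaller p, 0.110, was for depletion. Lhb, a pituitary hormone gene 41 bp from Ruvbl2, was placed by the authors' deposited table at -1.28 with a depletion p of 0.0569. Sec61a1, next to Ruvbl1, encodes a channel of the endoplasmic reticulum and was placed by the authors' deposited table at -1.86 with a depletion p of 0.0545. Other neighbours differed in sign from their member, and over the 20 neighbours 9 had the same sign. Among those that differed in the authors' deposited table were Rela at -0.47 beside Kat5 at 0.50, Tmod4 at -0.17 overlapping Vps72 at 0.59, and Eefsec at 0.089 beside Ruvbl1 at -1.35. Whether guides against a neighbour bear on the value of a member was not tested. Over all 19040 adjacent gene pairs the correlation of log2 fold changes was 0.0021 (Pearson's r), and over the 3174 pairs less than 1000 bp apart it was 0.0077. These pairs come from the same libraries and many have a gene in common, so the values are a description.

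The microRNA mmu-mir-7026 lies within Ep400 and has its own entry of 4 guides. The authors' deposited table placed it at a log2 fold change of 0.19 with 2 guides up and 0 down, where Ep400 stood at -0.24.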
